A study of Mus musculus with 3 samples.

Results

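Single-cell RNA counts of 10 genes, Ebf1, Ebf3, Foxc1, Pparg, Cebpa, Lepr, Adipoq, Lpl, Plin1 and Apoe, were followed through the cell populations of the growing mouse long bone. These adipo-stromal factors and lipid genes were taken by their symbols from the 55422 genes of the count tables, and all 10 had a row. The cells came from untreated 3-week-old male C57BL/6 mice and gave 3 droplet libraries. For the metaphyseal replicates 1 and 2, cells of the metaphysis, the bone next to the growth plate, were depleted of haematopoietic lineage and progenitor cells. For the Pdgfra-GFP+ library, cells with a nuclear H2B-GFP reporter driven by the Pdgfra locus were sorted from the metaphysis and epiphysis of heterozygous reporter mice. The reporter allele, the sort and the epiphysis therefore came together in 1 library and cannot be told apart from each other or from that library. The labels do not say whether the replicates came from separate mice, so p-values measure only the spread of population differences over these libraries. All populations were fitted together, so this spread, and each SE of a fold change, is pooled over them and not that of 1 comparison alone.

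Bone marrow stroma marked by the leptin receptor and by the chemokine Cxcl12 forms the niche of blood stem cells and is known as a source of marrow fat cells and of bone-forming cells. Fat cell formation is driven by the nuclear receptor Pparg together with C/EBP factors and early B cell factors of the EBF family. A mature fat cell secretes adiponectin (Adipoq), takes up lipid that lipoprotein lipase (Lpl) frees from lipoproteins, and stores it in droplets coated by perilipin 1 (Plin1).

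The populations were gated cell by cell on marker genes that included none of the 10 genes. The population named Lepr Cxcl12 stroma was gated on Cxcl12, Kitl, Esm1, Hp, Chrdl1, Agt and Gas6, so that neither Lepr nor any other of the 10 genes placed a cell in it, although the markers and the 10 genes were read in the same cells. It held 735 of 2389 cells of metaphyseal replicate 1, 682 of 2011 cells of metaphyseal replicate 2 and 4224 of 11319 cells of the Pdgfra-GFP+ library, and values below keep this order of libraries. Metaphyseal stroma, gated on Postn, Wif1, Kcnk2, Limch1, Tnn and Aspn, held 46, 39 and 1066 cells. Osteoblasts held 199, 176 and 1769 cells, and the 275 fibroblasts were all from the Pdgfra-GFP+ library. The summed level of the 7 stromal gate markers was 36048 to 37690 CPM across libraries in Lepr Cxcl12 stroma and 1273 to 2858 CPM in metaphyseal stroma, which follows from the gate. A unique molecular identifier (UMI) tags 1 captured RNA molecule, and CPM scales the count of a gene to a total of 1000000 UMIs over the summed cells of a population. The libraries held 22082735 to 91747759 UMIs, and the median cell of each held 5354 to 6458. The metaphyseal replicates shared no cell barcode, and the Pdgfra-GFP+ library shared 9 and 10 barcodes with them. Near-empty barcodes, with at most 100 UMIs, also held these genes, with 669, 675 and 1239 CPM of Adipoq. A low level in a population is therefore read here against endothelial-like and erythroid-like cells of the same library.

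The 10 genes are protein-coding in the GRCm38 annotation, where Ebf1 lies at chr11:44617317-45008091, Ebf3 at chr7:137193673-137314445, Foxc1 at chr13:31806633-31812476, Pparg at chr6:115360951-115490399 and Cebpa at chr7:35119293-35121928. Lepr lies at chr4:101717404-101815352, Adipoq at chr16:23146536-23158028, Lpl at chr8:68880491-68907448, Plin1 at chr7:79720218-79732903 and Apoe at chr7:19696109-19699188. RefSeq promoter sequences (GRCm38.p6) were found for 9 of the 10 genes, all but Lpl, with 15 start sites in all. Both strands of the 250 bases before each start site were searched for letters bound by the factors among the 10 genes: CCCNNGGG for EBF factors, TTGCNNAA for C/EBP factors, GTAAACA for forkhead factors such as Foxc1, and AGGTCA, the half-site of nuclear receptors such as Pparg. The windows of 3 start sites are shown, 5′ to 3′ on the gene's own strand with matches in capitals, because they belong to the gene with the largest difference between the stromal populations (Adipoq, chr16:23146286-23146535, plus strand), to the inner start site of the fat cell regulator (Pparg, chr6:115421816-115422065, plus strand) and to the gene that stayed near 0 (Plin1, chr7:79732904-79733026, minus strand, cut where annotated exons begin).
Adipoq: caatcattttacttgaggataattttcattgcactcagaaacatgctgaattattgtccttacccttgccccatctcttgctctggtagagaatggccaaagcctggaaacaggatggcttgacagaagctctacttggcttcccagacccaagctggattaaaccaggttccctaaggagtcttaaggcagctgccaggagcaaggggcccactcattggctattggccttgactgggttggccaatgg
Pparg: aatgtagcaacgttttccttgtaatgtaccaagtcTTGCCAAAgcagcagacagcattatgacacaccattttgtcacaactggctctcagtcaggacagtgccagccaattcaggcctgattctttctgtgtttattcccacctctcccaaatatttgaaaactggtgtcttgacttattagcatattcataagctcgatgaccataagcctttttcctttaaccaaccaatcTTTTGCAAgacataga
Plin1: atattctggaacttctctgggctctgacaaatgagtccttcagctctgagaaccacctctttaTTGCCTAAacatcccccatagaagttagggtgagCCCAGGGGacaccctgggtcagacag

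Before its start site Plin1 held 1 EBF match at position -153 and 2 C/EBP matches at -187 and -58, of which the last lies past the letters shown (positions give the first base of the match, with -1 the base before the start). These matches do not overlap. The inner Pparg window held 2 C/EBP matches, at -215 and -16. The Adipoq window held no match, which says only that these letters are not in this window. Over all 9 genes, EBF matches lay before Apoe, Ebf3 and Plin1, C/EBP matches before Plin1 and Pparg, the nuclear receptor half-site before 2 other start sites of Pparg, and forkhead matches before none. Both half-sites, the Apoe EBF match at -42 and the Plin1 match at -58 lay past the point where annotated exons of the gene begin. By window, 4 of 15 held the EBF letters, 2 the C/EBP letters, 2 the half-site and 0 the forkhead letters. Of 32851 windows of the same length in the genome, 11.8% held the EBF letters, 9.56% the C/EBP letters, 3.17% the forkhead letters and 14.0% the half-site. With 15 windows, no excess is read from these counts. A match is a description of letters and no binding was measured.

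Lepr Cxcl12 stroma was compared first with metaphyseal stroma, the stromal population at the growth plate side. Of the 10 genes, 9 had enough UMIs to be tested, and 8 were higher in Lepr Cxcl12 stroma (edgeR's quasi-likelihood test on sums per library and population, with library as a block and Benjamini-Hochberg adjustment over 12615 genes, threshold 0.05). None was lower. Of all genes tested, 13.0% were higher and 10.6% were lower. A gene can pass the filter on low counts through 1 population alone, so the counts of members here and in the comparisons that follow are descriptions. The median log2 fold change, Lepr Cxcl12 stroma minus metaphyseal stroma, was 3.51 over the 9 genes and 0.09 over all genes tested. Adipoq and Lpl had the largest fold changes, Pparg, Apoe and Cebpa followed, and Ebf1 did not pass the test.

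**Figure D1:**
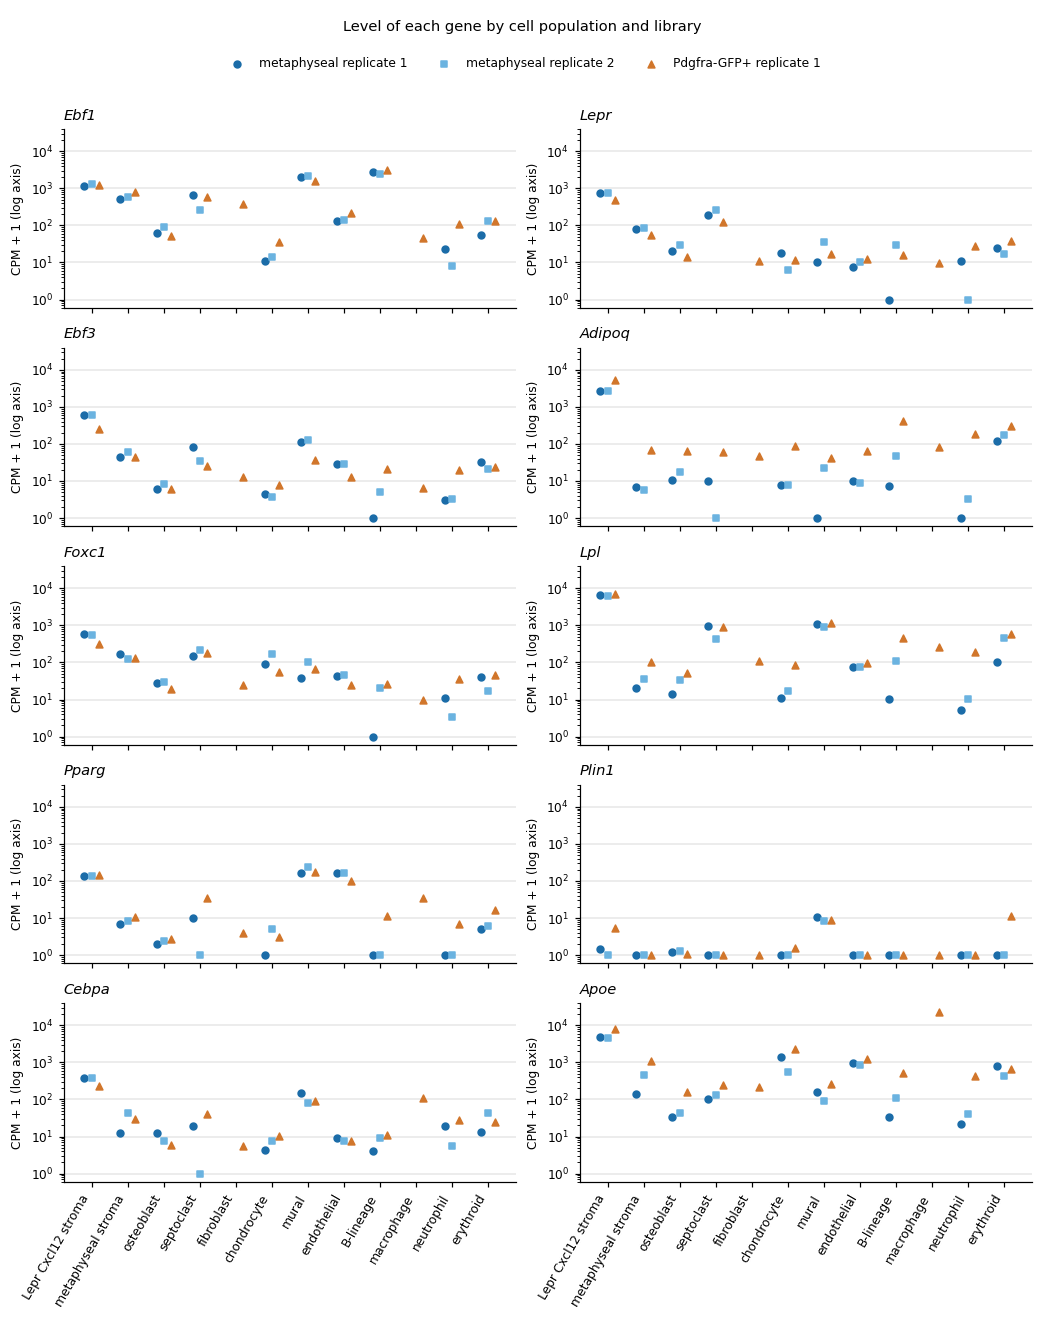
Level of each of the 10 genes in 12 populations, as CPM + 1 on a log axis, with 1 point for each library in which the population held at least 10 cells (circles and squares, metaphyseal replicates 1 and 2; triangles, Pdgfra-GFP+ library). Adipoq, Lpl, Lepr, Ebf3, Foxc1 and Cebpa were highest in Lepr Cxcl12 stroma among the populations plotted in each library, Ebf1 was highest in B-lineage-like cells, and Plin1 stayed at or below about 10 CPM everywhere.

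Adipoq, the adipokine adiponectin, stood at 2762, 2720 and 5474 CPM in Lepr Cxcl12 stroma. In metaphyseal stroma it stood at 5.78, 4.82 and 66.1 CPM, from 3, 2 and 444 UMIs. Every library separated the populations by more than the libraries differed from each other, with a log2 fold change of 7.94 ± 0.69 (SE, n = 3 libraries; adjusted p = 5.42e-10). The endothelial-like cells of the same libraries held 9.03, 8.07 and 65.5 CPM of Adipoq, close to the level in metaphyseal stroma. Lpl, the lipase that frees fatty acids from lipoproteins, stood at 6558, 6410 and 7247 CPM in Lepr Cxcl12 stroma. Its level in metaphyseal stroma was 19.3, 33.7 and 101 CPM, beside 74.1, 72.3 and 98.2 CPM in endothelial-like cells. The log2 fold change was 7.37 ± 0.79 (SE; adjusted p = 2.58e-08), and the libraries did not overlap.

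Apoe, an apolipoprotein that carries lipid between cells, stood at 4712, 4503 and 8090 CPM in Lepr Cxcl12 stroma. In metaphyseal stroma it varied widely between libraries, with 143, 467 and 1098 CPM, and the endothelial-like level was 975, 850 and 1206 CPM. The log2 fold change was 3.54 ± 0.57 (SE; adjusted p = 1.88e-05). Lepr, the receptor for leptin, stood at 751, 732 and 495 CPM in Lepr Cxcl12 stroma and at 80.9, 86.7 and 53.7 CPM in metaphyseal stroma. Its difference of 3.16 ± 0.37 on the log2 scale (SE; adjusted p = 1.49e-07) was nearly the same in each library, with log2 ratios of CPM of 3.22, 3.08 and 3.20. Lepr in metaphyseal stroma lay above its level in endothelial-like cells, which was 6.45, 9.13 and 11.6 CPM.

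Pparg, the nuclear receptor of fat cell formation, stood at 134, 137 and 144 CPM in Lepr Cxcl12 stroma and at 5.78, 7.23 and 9.82 CPM in metaphyseal stroma, from 3, 3 and 66 UMIs. The log2 fold change was 3.94 ± 0.36 (SE; adjusted p = 1.63e-09). Cebpa, the C/EBP factor that acts with it, stood at 390, 375 and 225 CPM against 11.6, 41.0 and 28.4 CPM, with a log2 fold change of 3.51 ± 0.33 (SE; adjusted p = 2.59e-09). The libraries of both stromal populations did not overlap for either gene. Erythroid-like cells held 3.95, 5.15 and 15.8 CPM of Pparg and 11.9, 41.2 and 22.9 CPM of Cebpa. The metaphyseal stroma levels of both genes lay near these and are not read as expression.

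Ebf3, an EBF factor known from the upkeep of the marrow niche, stood at 614, 610 and 246 CPM in Lepr Cxcl12 stroma and at 44.3, 57.8 and 43.0 CPM in metaphyseal stroma (log2 fold change 3.18 ± 0.36 SE, adjusted p = 6.27e-08). Foxc1, a forkhead factor known from the same niche, stood at 585, 567 and 314 CPM against 170, 125 and 129 CPM (log2 fold change 1.69 ± 0.37 SE, adjusted p = 0.000706). Endothelial-like cells held 27.2, 28.1 and 12.2 CPM of Ebf3 and erythroid-like cells 31.6, 20.6 and 22.9 CPM, below metaphyseal stroma in each library. Near-empty barcodes held 162, 172 and 63.2 CPM of Ebf3, above metaphyseal stroma. The part of free RNA in the Ebf3 level of metaphyseal stroma was not tested. Ebf1, which also directs B cell and fat cell formation, stood at 1163, 1306 and 1268 CPM against 530, 590 and 803 CPM. Its libraries did not overlap, but the log2 fold change of 0.93 ± 0.39 (SE, 95% interval 0.14 to 1.72) missed the threshold with an adjusted p of 0.0841. The call for Ebf1 changed with the processing: the adjusted p was 0.00774 without the Pdgfra-GFP+ library, 0.00274 without the filter on low counts, 0.0114 with populations taken from clusters and 0.0374 with cells thinned to 2000 UMIs.

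**Figure D2:**
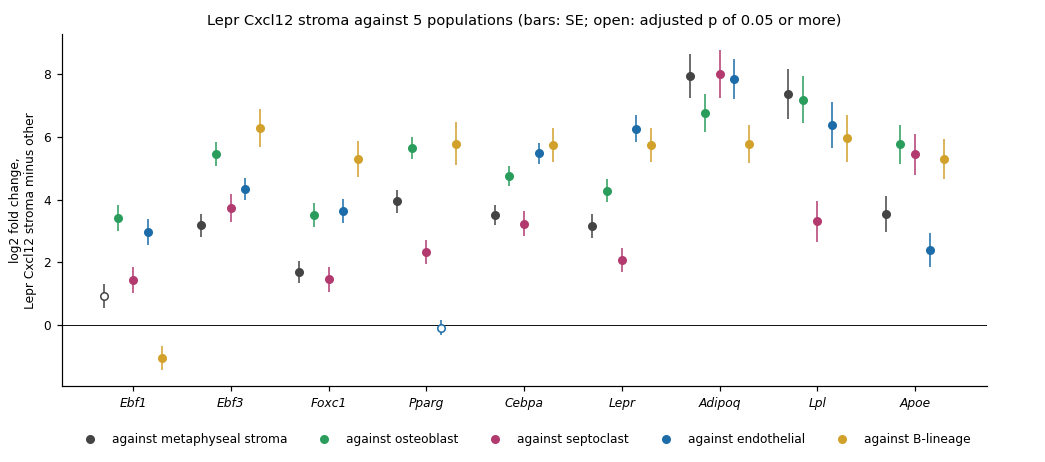
Log2 fold changes of 9 genes, Lepr Cxcl12 stroma minus each of 5 populations, from edgeR's quasi-likelihood test, with bars for 1 SE; filled points passed the adjusted threshold of 0.05 and open points did not. Adipoq lay between 5.77 and 7.99 in all 5 comparisons, Ebf1 lay below 0 against B-lineage-like cells, and Pparg lay near 0 against endothelial-like cells.

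Against osteoblasts, the bone-forming cells, all 9 tested genes were higher in Lepr Cxcl12 stroma, where 28.1% of all genes tested were higher and 23.3% lower. The median log2 fold change was 5.45 over the 9 genes and 0.12 over all genes tested. Lpl had the largest difference, with 13.2, 33.7 and 50.9 CPM in osteoblasts and a log2 fold change of 7.19 ± 0.76 (SE; adjusted p = 3.37e-09). Ebf1 had the smallest, with 62.9, 88.7 and 51.7 CPM and a log2 fold change of 3.41 ± 0.42 (SE; adjusted p = 6.02e-08). Endothelial-like cells held 130, 140 and 216 CPM of Ebf1, above osteoblasts in each library. Pparg was at 0.946, 1.37 and 1.75 CPM in osteoblasts, from 4, 5 and 36 UMIs, and differed by 5.64 ± 0.35 (SE; adjusted p = 5.18e-14). Foxc1, at 26.7, 28.7 and 18.6 CPM, lay below endothelial-like cells in each library, which held 43.4, 44.8 and 24.4 CPM. Lpl in osteoblasts likewise lay below the 74.1, 72.3 and 98.2 CPM of endothelial-like cells. Pparg in osteoblasts lay below the 3.95, 5.15 and 15.8 CPM of erythroid-like cells. These osteoblast levels are not read as expression, so the sizes of their differences rest on the low side. The values of this comparison depend on the scaling: with UMI totals in place of edgeR's TMM factors the median of all genes moved from 0.12 to 0.92, and 7579 genes were higher and 1233 lower instead of 3551 and 2935, while the 9 genes stayed higher.

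Septoclast-like cells, gated on Mmp9 and other markers of the cells that resorb growth plate cartilage, numbered 11, 10 and 205. All 9 tested genes were higher in Lepr Cxcl12 stroma than in them, where 9.85% of all genes tested were higher and 7.48% lower, with a median log2 fold change of 3.24 over the 9 genes and 0.15 over all genes. Adipoq was at 9.11, 0 and 60.3 CPM in septoclast-like cells, from 1, 0 and 99 UMIs, and differed by 7.99 ± 0.76 on the log2 scale (SE; adjusted p = 6.49e-09). Lpl was higher in Lepr Cxcl12 stroma by 3.30 ± 0.65 (SE; adjusted p = 0.000366) than in septoclast-like cells, where it stood at 993, 421 and 912 CPM. These levels lay above the 74.1, 72.3 and 98.2 CPM of endothelial-like cells. They also lay above the 98.8, 454 and 600 CPM of erythroid-like cells, except in metaphyseal replicate 2. There 1 erythroid-like cell gave all 88 Lpl UMIs. In metaphyseal replicate 1 a single septoclast-like cell of the 11 gave 72 of the 109 Lpl UMIs. The levels in the metaphyseal replicates rest on few cells and are not read as expression. Lpl was seen there in 6 of 11 and 6 of 10 septoclast-like cells, and in 3 of 18 and 1 of 13 erythroid-like cells. In metaphyseal replicate 2 no septoclast-like cell gave more than 16 of the 38 Lpl UMIs. In the Pdgfra-GFP+ library Lpl was seen in 150 of 205 septoclast-like cells and 26 of 72 erythroid-like cells. The part of free RNA in that level was not tested. Lepr stood at 191, 255 and 120 CPM in septoclast-like cells, above its metaphyseal stroma range of 53.7 to 86.7 CPM. The calls for Ebf1 (1.43 ± 0.41, SE, adjusted p = 0.0124) and Foxc1 (1.46 ± 0.39, SE, adjusted p = 0.00811) were lost without 1 metaphyseal library. The adjusted p of Ebf1 was then 0.0504 without replicate 1 and 0.155 without replicate 2, that of Foxc1 was 0.156 and 0.0526, and that of Ebf1 was 0.178 without cycling cells and 0.124 without the library block.

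Fibroblasts were present in the Pdgfra-GFP+ library only, so the difference had no replicate check and was not tested. Of 5872 genes with a mean of at least 20 CPM over both populations, 7.22% were more than 4-fold higher in Lepr Cxcl12 stroma and 5.28% more than 4-fold lower. Ebf3, Pparg, Cebpa and Lepr reached that mean only through Lepr Cxcl12 stroma, so no count of members is read against these shares. Ebf1 stood at 386 CPM in fibroblasts and 1268 CPM in Lepr Cxcl12 stroma, a log2 ratio of 1.72, and was within 4-fold. Pparg was at 2.85 CPM in fibroblasts (exact 95% Poisson interval 0.924 to 6.64, from 5 UMIs), Cebpa at 4.55 CPM (1.97 to 8.97, from 8 UMIs) and Lepr at 9.68 CPM (5.64 to 15.5, from 17 UMIs). Adipoq, at 45.0 CPM (35.6 to 56.0), and Lpl, at 111 CPM (96.0 to 128), lay near their endothelial-like levels of 65.5 and 98.2 CPM in that library. These intervals cover counting error only.

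Some of the genes were as high or higher outside the skeletal lineage. Apoe was highest in the 87 macrophage-like cells of the Pdgfra-GFP+ library, at 23431 CPM (exact 95% Poisson interval 23033 to 23834), 1.53 log2 units above the Lepr Cxcl12 stroma of that library. Of 5936 genes with a mean of at least 20 CPM over both, 13.6% were more than 4-fold higher in Lepr Cxcl12 stroma than in macrophage-like cells and 8.27% more than 4-fold lower. Cebpa, which also directs myeloid cells, stood at 110 CPM in macrophage-like cells and differed by a log2 ratio of 1.03. The 5 macrophage markers summed to 1.62 to 10.3 CPM in Lepr Cxcl12 stroma and to 14358 CPM in macrophage-like cells, with as many as 3 of the 5 at 0 in a library of Lepr Cxcl12 stroma.

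Ebf1 was higher in B-lineage-like cells, where it is a defining factor, with 2774, 2389 and 3221 CPM and a log2 fold change of -1.05 ± 0.39 (SE; adjusted p = 0.0256; Lepr Cxcl12 stroma minus B-lineage-like cells). The remaining 8 tested genes were higher in Lepr Cxcl12 stroma than in B-lineage-like cells. Of all genes tested 29.2% were higher and 17.9% lower in Lepr Cxcl12 stroma, and the median log2 fold change was 5.75 over the 9 genes and 0.49 over all genes. The Ebf1 call was lost without metaphyseal replicate 1 (-0.96, adjusted p = 0.185), without the library block (-1.07, adjusted p = 0.117) and with populations from clusters (-0.61, adjusted p = 0.0586). Ebf3 was at 0, 3.98 and 20.3 CPM in B-lineage-like cells, from 0, 1 and 4 UMIs. Ebf1 was also high in mural-like cells, the contractile cells of vessels, at 2043, 2176 and 1546 CPM, above each library of Lepr Cxcl12 stroma, a contrast that was not tested.

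Against endothelial-like cells, 8 of 9 tested genes were higher in Lepr Cxcl12 stroma, where 24.6% of all genes tested were higher and 23.5% lower, with a median log2 fold change of 4.33 over the 9 genes and 0.02 over all genes. Pparg was the exception, at 163, 160 and 97.6 CPM in endothelial-like cells and 134, 137 and 144 CPM in Lepr Cxcl12 stroma. Its log2 fold change was -0.08 ± 0.24 (SE, 95% interval -0.57 to 0.40; adjusted p = 0.802), which does not show that the levels were the same. The direction turned between libraries, with log2 ratios of CPM of -0.29, -0.23 and 0.57, and without the Pdgfra-GFP+ library Pparg was lower in Lepr Cxcl12 stroma by a log2 fold change of -0.30 (adjusted p = 0.00114). The 4 endothelial markers summed to 10.0 to 65.2 CPM in Lepr Cxcl12 stroma and to 3411 to 4814 CPM in endothelial-like cells. Mural-like cells held Pparg at 168, 234 and 174 CPM, Cebpa at 149, 78.0 and 88.2 CPM and Lpl at 1082, 900 and 1185 CPM. Mural-like cells, 17, 19 and 69 in number, thus carried Ebf1, Pparg and Lpl. Their Adipoq stood at 0, 21.3 and 41.5 CPM, from 0, 3 and 16 UMIs. Its exact 95% Poisson intervals were 0 to 34.4, 4.38 to 62.1 and 23.7 to 67.4 CPM. In each library they held the endothelial-like level, which was 9.03, 8.07 and 65.5 CPM.

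The order of populations by mean level was compared with the spread of the libraries. Lepr Cxcl12 stroma came first for Ebf3, Foxc1, Cebpa, Lepr, Adipoq and Lpl, after macrophage-like cells for Apoe, after B-lineage-like and mural-like cells for Ebf1, and after mural-like and endothelial-like cells for Pparg. For Cebpa 14 cells gated as other leukocytes in the Pdgfra-GFP+ library held 233 CPM, from 23 UMIs, within the range of Lepr Cxcl12 stroma. For Pparg the ranges of Lepr Cxcl12 stroma and endothelial-like cells overlapped, so that their order is not defined by these libraries. For Ebf1 the ranges of metaphyseal stroma and septoclast-like cells overlapped, at 530 to 803 and 255 to 674 CPM. For Lpl the ranges of mural-like and septoclast-like cells, which came next after Lepr Cxcl12 stroma, overlapped at 900 to 1185 and 421 to 993 CPM. In chondrocyte-like cells Foxc1 stood at 88.0, 164 and 53.0 CPM, beside 39.5, 15.5 and 45.8 CPM in erythroid-like cells. A single chondrocyte-like cell gave 37 of the 122 Foxc1 UMIs in metaphyseal replicate 2. Apoe stood at 1441, 559 and 2259 CPM in chondrocyte-like cells, beside 975, 850 and 1206 CPM in endothelial-like cells, and lay below these in replicate 2.

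To compare shares of cells with a UMI at 1 depth, cells were thinned to 2000 UMIs, and 288 shallower cells of Lepr Cxcl12 stroma and 48 of metaphyseal stroma, all in the Pdgfra-GFP+ library, were left out. Adipoq was seen in 93.5%, 93.4% and 96.6% of Lepr Cxcl12 stroma cells, and before thinning in 98.2%, 98.4% and 98.2%. In metaphyseal stroma it was seen in 4.35%, 0% and 11.9% of thinned cells, or 2, 0 and 121 cells. Erythroid-like cells had shares of 5.56%, 7.69% and 16.7%, from only 1 of 18, 1 of 13 and 12 of 72 cells. The shares of endothelial-like cells were 1.34%, 1.80% and 11.5%. Shares this near to those populations are not read as expression, and the part of free RNA in them was not tested. Before thinning the shares were 6.52%, 5.13% and 29.6% in metaphyseal stroma and 22.2%, 7.69% and 43.1% in erythroid-like cells. Pparg was seen in 20.8%, 23.5% and 23.98% of thinned Lepr Cxcl12 stroma cells and in 0%, 0% and 1.96% of metaphyseal stroma cells, or before thinning in 47.9%, 48.8% and 37.6% against 6.52%, 7.69% and 5.25%. At least 5 of the 10 genes were seen in 94.2%, 96.8% and 88.1% of Lepr Cxcl12 stroma cells, and in 0%, 5.13% and 3.34% of metaphyseal stroma cells. No Lepr Cxcl12 stroma cell had none of the 10 genes, and the median cell had 7, 7 and 6.

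Within the stroma the levels were followed along the gate score itself. All cells whose leading score was one of the 2 stromal scores and at least 0.2, including cells between the gates, were put into 5 bins of near-equal size in each library by the difference of the scores, from the lowest (bin 1) to the highest difference in favour of Lepr Cxcl12 stroma (bin 5). Bin 1 was not alike between libraries: it reached up to a difference of 0.356 and 0.385 in the metaphyseal replicates, whose 166 and 153 cells therefore included Lepr Cxcl12 stroma cells, and ended at -0.10 in the Pdgfra-GFP+ library. No test was made, since the bins are of cells and not of samples. Leaving Plin1 aside, each of the genes was lowest in bin 1 in every library. Plin1 held 0 CPM in bin 1 of each library, and 2.23, 11.3, 0.925 and 0.678 CPM in bins 2 to 5 of the Pdgfra-GFP+ library. The bins follow the gate score, and the share of all genes lowest in bin 1 was not taken, so this is a description. Lpl climbed through every bin, from 683, 756 and 94.8 CPM in bin 1 to 10159, 9506 and 10123 CPM in bin 5. Adipoq climbed from 662, 603 and 64.8 CPM to 3512, 3525 and 7142 CPM. Ebf1 reached 1175, 1369 and 1020 CPM in bin 2 and then stayed between 1130 and 1365 CPM in bins 3 to 5. Ebf3, Foxc1 and Cebpa likewise changed little over bins 3 to 5 in the plot of levels by bin, whereas Lpl did not level off.

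**Figure D3:**
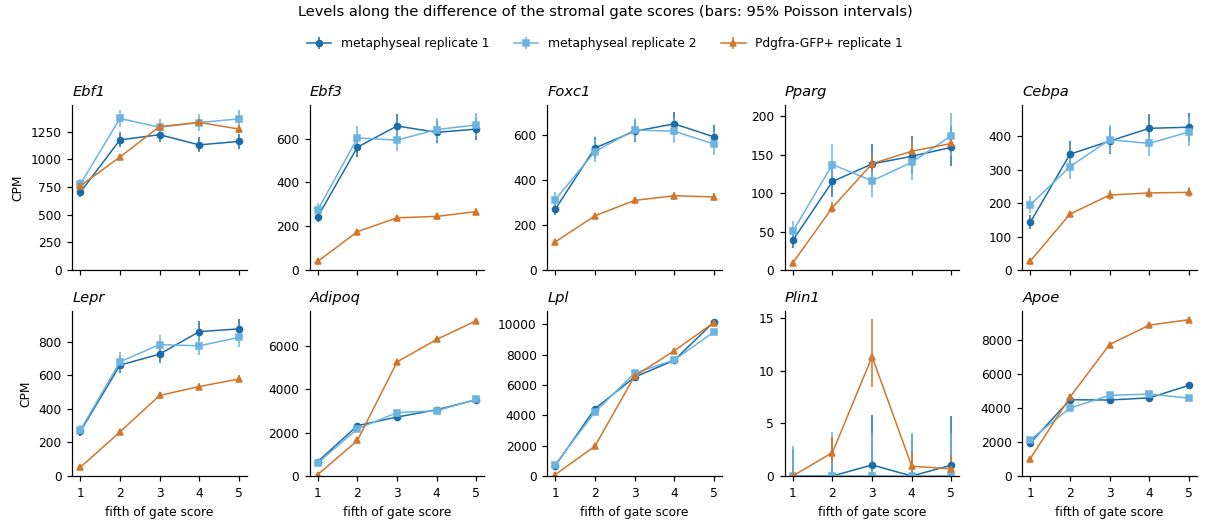
CPM of each gene in 5 bins of stromal cells ordered by the difference of the Lepr Cxcl12 and metaphyseal stroma gate scores, for 3 libraries, with exact 95% Poisson intervals that cover counting error only. Bin 5 held 10159, 9506 and 10123 CPM of Lpl, and Plin1 stayed below 15 CPM in every bin.

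The libraries differed in Lepr Cxcl12 stroma itself. The metaphyseal replicates lay close to each other for each gene above 100 CPM, while the Pdgfra-GFP+ library held 1.997 times their mean level of Adipoq and 1.76 times that of Apoe, and 0.401 times that of Ebf3, 0.545 times that of Foxc1, 0.588 times that of Cebpa and 0.667 times that of Lepr. Ebf1, Pparg and Lpl stood at 1.03, 1.07 and 1.12 times. Over 6486 genes with a mean of at least 20 CPM the median ratio was 0.960, with 7.91% of genes above 1.5 and 20.4% below its inverse. The same ratios in near-empty barcodes were 1.84 for Adipoq, 1.61 for Apoe, 0.378 for Ebf3 and 0.523 for Pparg. The median cell of Lepr Cxcl12 stroma held 5673, 5738 and 3608 UMIs, so depth moved with the library, and its part in these ratios was not tested.

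Plin1, the droplet coat, was nearly missing. In Lepr Cxcl12 stroma 2, 0 and 70 UMIs were found, or 0.463, 0 and 4.22 CPM, and the gene did not pass the filter on low counts. In metaphyseal stroma it had 0 UMIs in each library, which allows up to 5.78, 7.23 and 0.446 CPM at a limit of 3 UMIs. Mural-like cells held 9.33, 7.09 and 7.78 CPM, above Lepr Cxcl12 stroma in each library, but from only 1, 1 and 3 UMIs. In the Pdgfra-GFP+ library 1 erythroid-like cell held 7 Plin1 UMIs. Of all 15719 cells, 47 held a Plin1 UMI. In the Lepr Cxcl12 stroma of the Pdgfra-GFP+ library, 47 of the 70 UMIs came from only 7 of 4224 cells, each with 4 to 13. In the metaphyseal replicates no cell of any population had more than 1.

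These 7 cells were picked by their Plin1 UMIs after the values had been seen, and are described without a test. Fabp4, a fatty acid carrier of fat and endothelial cells, stood at 21700 CPM in them and at 174 CPM in the 4198 cells of the same gate with no Plin1 UMI, beside 9140 CPM in the endothelial-like cells of that library. Among the 7 cells the Fabp4 count ran from 1 to 516 UMIs. Cfd, the adipokine adipsin, stood at 711 against 2.56 CPM and was seen in 6 of the 7. In the 19 cells with 1 to 3 Plin1 UMIs Cfd stood at 933 CPM and was seen in 4. Pparg and Cebpa were seen in all 7, at 559 and 606 CPM against 141 and 222 CPM. The niche factors went the other way, with Ebf3 at 34.9 against 247 CPM, Foxc1 at 46.6 against 315 CPM, Lepr at 221 against 498 CPM and Cxcl12 at 8107 against 23796 CPM. The Ebf3 and Foxc1 levels rest on few UMIs, with Ebf3 seen in 3 and Foxc1 in 2 of the 7 cells. No cell of the 7 held more than 1 Ebf3 UMI or 2 Foxc1 UMIs. Adipoq, at 6197 against 5473 CPM, Lpl, at 9505 against 7238 CPM, and Apoe, at 7233 against 8104 CPM, differed by less than 1.5 times. The median of the 7 cells was 11860 UMIs against 3604, and Scrublet called 1 of the 7 a doublet.

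**Figure D4:**
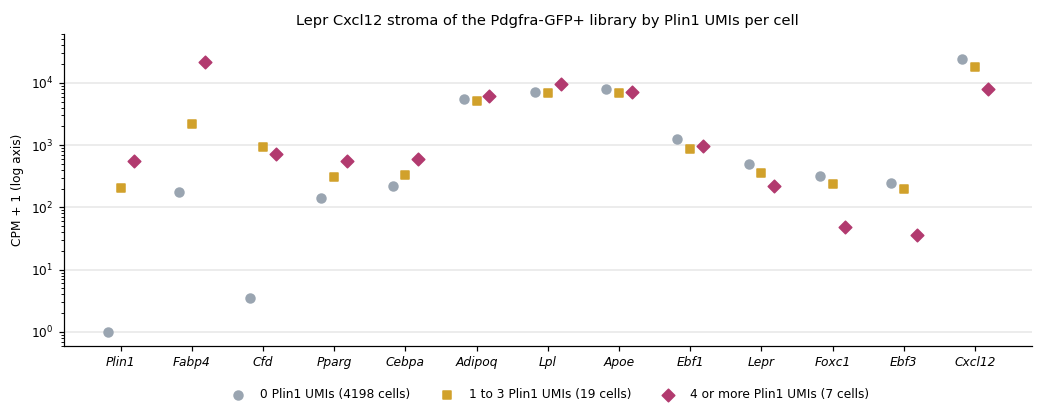
Levels of 13 genes, as CPM + 1 on a log axis, in the Lepr Cxcl12 stroma cells of the Pdgfra-GFP+ library with 0 (circles), 1 to 3 (squares) and 4 or more (diamonds) Plin1 UMIs, 4198, 19 and 7 cells. Against the cells with 0, Fabp4, Cfd, Pparg and Cebpa lie higher and Ebf3, Foxc1, Lepr and Cxcl12 lower in the 7 cells. Cfd lies higher still in the 19 cells, and Plin1 differs by the choice of cells.

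The 6 lists of further genes of fat and lipid biology, with no gate marker and none of the 10 genes, were described in the same comparison of Lepr Cxcl12 stroma with metaphyseal stroma, where 13.0% of all genes tested were higher and 10.6% lower. Of the adipogenic regulators, 13 of 15 were tested, 7 were higher, none was lower, and the median log2 fold change was 1.03. Among genes with a mean of at least 20 CPM the largest changes were those of Klf15, a Kruppel-like factor of metabolism, with 33.1, 32.2 and 52.0 CPM against 0, 0 and 4.31 (3.85 ± 0.36 on the log2 scale, SE, adjusted p = 2.03e-09), of Stat5a (2.07), of the liver X receptor gene Nr1h3 (1.94) and of Stat5b (1.74). Of the adipokines and their receptors, 8 of 11 were tested, with 5 higher and 1 lower and a median of 1.30. Rarres2, the adipokine chemerin, stood at 597, 556 and 1347 CPM against 11.6, 19.3 and 91.1 CPM (4.70 ± 0.56, SE, adjusted p = 1.86e-07). Rbp4, the retinol carrier, and the adiponectin receptor Adipor2 were higher by 2.53 and 1.58. The others higher were Cdh13 (1.80) and Nampt (1.02), and Metrnl was lower, with a log2 fold change of -3.09. Cdh13 lacked a mean of at least 20 CPM or a like sign in all libraries. Against endothelial-like cells Cdh13 was lower in Lepr Cxcl12 stroma (-4.55) and Nampt was higher (0.82).

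Of the lipid droplet and storage genes, 11 of 19 were tested, 1 was higher and 1 was lower, near the shares of all genes, and the median was 0.49. The one that was higher was Fabp4 (99.9, 73.8 and 299 CPM against 23.1, 16.9 and 14.1 CPM; 3.12 ± 0.81, SE, adjusted p = 0.00436), which stood at 5739, 5123 and 9140 CPM in endothelial-like cells, and the one that was lower was Mgll, the lipase of monoglycerides, at 5.32, 4.18 and 4.34 CPM against 131, 96.4 and 104 CPM (-4.65 ± 0.43, SE, adjusted p = 2.03e-09). The 299 CPM of Fabp4 in the Pdgfra-GFP+ library include the 7 cells picked by Plin1, at 21700 CPM. The 4198 cells with no Plin1 UMI stood at 174 CPM, with Fabp4 seen in 16.5% of them. Of the fatty acid and sterol synthesis genes, 14 of 15 were tested, 1 was higher, 3 were lower and the median was -0.40, with the desaturases Fads2, Scd2 and Fads1 at -2.07, -1.30 and -0.69 and Acaca, the first enzyme of fatty acid synthesis, at 0.69. Of the lipoprotein and lipid transport genes, 17 of 18 were tested, 6 were higher, 1 was lower and the median was 0.63. Apod (3.86), the Lpl inhibitor Angptl4 (1.79) and the phospholipid carrier Pltp (1.45) were among those higher. The others higher were Cd36 (5.04), Abcg1 (3.89) and Npc2 (0.996). Cd36 and Abcg1 lacked a mean of at least 20 CPM or a like sign in all libraries. Against endothelial-like cells both were lower in Lepr Cxcl12 stroma, with log2 fold changes of -5.06 and -3.66, while Npc2 was higher (1.63). The lipoprotein receptor Vldlr was lower, at 7.87, 10.1 and 7.18 CPM against 116, 159 and 121 CPM (-4.05). All 9 leptin receptor signalling genes were tested, 2 were higher and none was lower, with a median of 0.41. Socs3, the feedback inhibitor of the leptin receptor, stood at 796, 770 and 447 CPM against 195, 328 and 118 CPM (1.62 ± 0.35, SE, adjusted p = 0.000771), and Irs2 was the other gene that was higher (1.39, adjusted p = 0.0247).

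**Figure D5:**
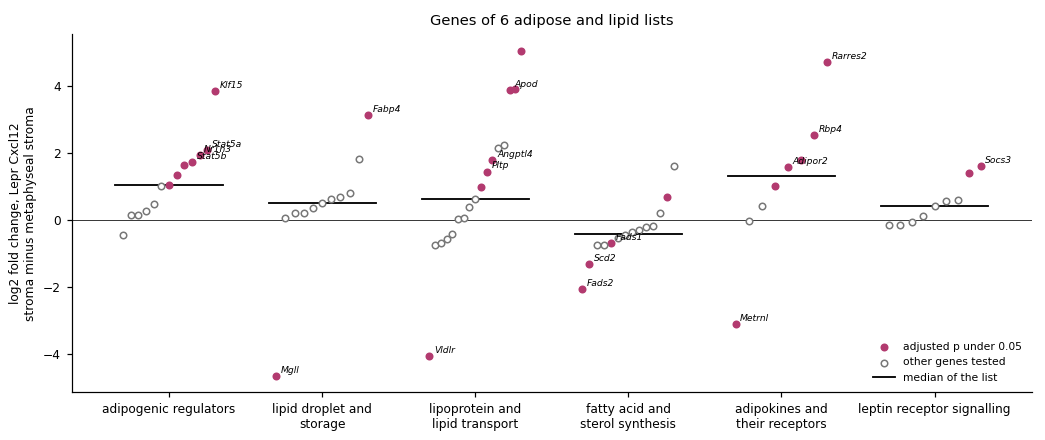
Log2 fold changes, Lepr Cxcl12 stroma minus metaphyseal stroma, of the tested genes of 6 adipose and lipid lists; filled points passed the adjusted threshold of 0.05, bars mark list medians and named genes are labelled. The medians run from -0.40 for fatty acid and sterol synthesis to 1.30 for adipokines and their receptors, and the median of all genes was 0.09.

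Against osteoblasts, where 28.1% of all genes tested were higher and 23.3% lower, 11 of 14 tested synthesis genes were lower in Lepr Cxcl12 stroma and 1 was higher with a median of -1.20, while 10 of 13 adipogenic regulators were higher and 1 lower with a median of 1.57. With UMI totals in place of TMM factors these counts became 6 lower and 3 higher with a median of -0.40, and 11 higher and 1 lower with a median of 2.42. In the comparison of both stromal populations the same change of scaling left 0 synthesis genes higher and 2 lower, and the counts of the other 5 lists as given.

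The genes most like each of the 10 over the 34 sums of population and library were sought by Pearson's r of log2(CPM + 10). The search covered genes with a mean of at least 20 CPM, 6210 with gate markers counted. Gate markers were then left out of the ranking, so none of them could be named. The likenesses are descriptions, since sums of 1 library share its depth and free RNA. Lepr was most like Mme (0.930), Ackr4 (0.922) and Ccn5 (0.916), and Ebf3 most like Id4 (0.922), Mpdz (0.912) and St5 (0.909). Adipoq was most like Kng2 (0.908), Ms4a4d (0.874) and Pdzrn4 (0.866), Lpl most like Trf (0.866), Gm4951 (0.859) and Gdpd2 (0.857), and Foxc1 most like Tnfsf11 (0.896), Tns3 (0.893) and Aldh7a1 (0.889). Pparg was most like Epas1 (0.898), Tspan12 (0.891) and Peak1 (0.883), and Cebpa most like Dipk1a (0.860), Angpt1 (0.816) and P2rx4 (0.792). Apoe, with its 2 unlike high populations, had the lowest values, for Fth1 (0.765), Dhrs3 (0.708) and Abhd12 (0.705), and Ebf1 was most like Akap12 (0.844), Lias (0.835) and Luc7l3 (0.832). For Plin1, whose levels lie near 0, the leading genes Aoc3 (0.792), Trarg1 (0.766) and Olfr558 (0.765) rest on a few UMIs. None of the 30 was itself one of the 10 genes. The 10 are few among the 6210 searched, so nothing on their likeness to each other is read from this.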

How the data were processed

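The 3 libraries were made with 10x Genomics 3′ kits. Per the methods, the authors used fastp 0.20 for trimming and STARsolo (STAR 2.7.3a) for alignment and counting on mm10 (Gencode M23, with H2B-GFP added). They deposited unnormalized UMI counts for all barcodes, without a filter on cells. All steps after these deposited counts were done here. Cells were kept with at least 1500 genes (metaphyseal) or 1000 genes (Pdgfra-GFP+), at most 15% mitochondrial and 30% ribosomal UMIs, which left 2389, 2011 and 11319 cells. Genes found in over 10 cells were kept. EmptyDrops was not used here. Doublets called with Scrublet (scanpy 1.11.5; 25, 18 and 176 cells) were kept.

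Each cell was scored for 14 marker lists as the mean of its log-scaled marker levels, each relative to the 50th highest cell, and was assigned to the leading list at a score of at least 0.2 and a lead of at least 0.1. Sums of UMI counts over each population of at least 10 cells in a library were tested with edgeR 4.0.16 (R 4.3.3, filterByExpr, TMM, quasi-likelihood test, library as a block, all populations in 1 fit of 12615 genes, two-sided, threshold 0.05). Populations present in 1 library were not tested. Sums of 1 library share a cell suspension and are therefore paired. The deviations of both stromal populations from their means correlated with r of 0.267, 0.269 and 0.593 over genes, which are not independent replicates. Poisson intervals are exact 95% intervals of counting error alone. Gene positions are from Gencode M21, of the same genome build.

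The 10 genes, the gene lists and the comparisons were chosen with earlier results of these data known. Genes named beyond the 10 are up to 4 of each list and, for each of the 10 genes, the 3 most like it outside the gate markers. Those of the lists had the largest absolute log2 fold change between the stromal populations. They were taken from called genes of like sign in all libraries and a mean of at least 20 CPM. Cdh13, Nampt, Acaca, Irs2, Cd36, Abcg1, Npc2, the cells picked by Plin1, and Fabp4, Cfd and Cxcl12 in them, were chosen after their values were seen. The alternatives were DESeq2 1.42.0 size factors or its Wald test, no filter, no block, each library left out, other cell minimums, clusters in place of gates, a stricter gate, removal of doublets or cycling cells, 1000 genes in all libraries, thinning to 2000 UMIs, and UMI totals without TMM, the last chosen after seeing the data. The test was tried first on simulated counts.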

Additional observations from a re-analysis of the deposited data

Results flagged for a closer look

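The effect of population on Pparg turned between the library groups. Against endothelial-like cells, the log2 ratio of CPM in Lepr Cxcl12 stroma was -0.29 and -0.23 in the metaphyseal replicates and 0.57 in the Pdgfra-GFP+ library, so that every metaphyseal library moved one way and the Pdgfra-GFP+ library the opposite way. The difference between the groups was not tested. The level in endothelial-like cells was 163, 160 and 97.6 CPM and that in Lepr Cxcl12 stroma 134, 137 and 144 CPM, from 1120, 888 and 290 endothelial-like cells. The Pdgfra-GFP+ library was sorted for GFP, and the part of the sort in this result was not tested.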

How the results depend on the processing

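Of 618 values that the alternatives gave for the 43 member differences past the threshold, 609 kept their direction and passed again, and the 9 others, of Ebf1 and Foxc1 as given above, kept their direction only. Pparg against endothelial-like cells, not past the threshold, changed sign without either metaphyseal replicate (0.093 and 0.017) and was -0.30 and past the threshold without the Pdgfra-GFP+ library. Leaving out 1 library gave 0 to 1 members lower there and 0 to 1 against B-lineage-like cells, where the count was also 0 without the library block and with clusters.

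Thinning, which left 6900 genes to test, gave 1568, 3297, 1067, 3120 and 3349 called genes against metaphyseal stroma, osteoblasts, septoclast-like, B-lineage-like and endothelial-like cells, where 2987, 6486, 2185, 5951 and 6067 were called. Without the library block 1705, 4270 and 1238 genes were called against the first 3 of these. Removing cycling cells gave 3451 against B-lineage-like cells. Leaving out 1 library gave 1677 (without metaphyseal replicate 1), 1905 (without replicate 2) and 2464 against metaphyseal stroma, and 824 (without the Pdgfra-GFP+ library) to 1424 (without metaphyseal replicate 2) against septoclast-like cells. The causes of these lower counts were not tested. At least 30 cells, the stricter gate and clusters gave no septoclast value. The DESeq2 Wald test moved the share of higher calls against septoclast-like cells from 56.8% to 45.7%. Free RNA limits what low levels show: a level near that of erythroid-like cells is not read as expression, and populations of 10 to 50 cells hold few UMIs of Pparg, Cebpa and Ebf3.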
